A study of Daphnia magna with 335 samples.

Results

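The 6 libraries described here came from pools of whole Daphnia magna exposed for 24 h to 2-tert-butyl-4-methoxyphenol at 21.1 or 6.677 µM, with 3 pools at each concentration. They were taken by chemical and concentration, with no threshold on a measured value, from 335 libraries of a series on 12 contaminants found in tributaries of the Great Lakes. These concentrations are the second and the third highest of the 8 tested, which ran from 0.021 to 66.67 µM. They were set against 6 solvent pools of the same exposure, 3 labelled CON and 3 labelled XtraC, a code that the labels do not explain. All groups were in filtered lake water with the same share of dimethyl sulfoxide (DMSO), at most 0.34%. Each pool joined the homogenates of up to 5 animals of one plate, with dead animals left out, so a pool may hold fewer and describes survivors. The labels give no age, sex or strain. The question was which transcripts move below the top concentration. The 66.67 µM pools entered the filter on low counts, the scaling and the estimate of spread. They are otherwise given side by side as a description, with no test.

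2-tert-butyl-4-methoxyphenol, known as butylated hydroxyanisole, is a phenolic antioxidant used as a preservative in food and cosmetics. In mammals it is a textbook inducer of glutathione transferases and other detoxification enzymes, through a stress-response pathway whose arthropod counterpart runs through cap'n'collar transcription factors. Daphnia magna, the water flea, is a freshwater crustacean widely used in toxicity testing. TempO-Seq, the assay used, counts pairs of detector oligos that are ligated when they sit side by side on their target transcript, so a count belongs to a probe and not to a whole transcript. The files name probes by a gene identifier and a probe number and pair neither with a gene name or a sequence. The results are therefore given by identifier, and no probe can be assigned here to the detoxification pathway or to any other.

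The table held 2378 probes for 1988 gene identifiers, of which 1471 probes for 1338 identifiers passed the filter on low counts and were tested. The 6 treated pools held 167462 to 898141 counts and the 6 DMSO pools 428776 to 1040341. Within a group, pools carry the letters A, B and C. Both treated pools of letter A were shallow, with 179032 counts at 21.1 µM and 167462 at 6.677 µM, which are 27.4% and 25.6% of the median of the exposure's 54 libraries. Over the 12 pools, 1743 to 1857 probes had a count and the top 10 probes took 24.8% to 32.5% of the counts. CPM below stands for counts scaled to 1000000 per library. The correlation of log2 CPM between pools of one group had a median of 0.935 at 21.1 µM, 0.926 at 6.677 µM and 0.973 in DMSO. Levels below are CPM scaled by TMM factors, except in tests, which used the counts. In whole-body pools, fewer cells of a type and less RNA per cell cannot be told apart.

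At 21.1 µM, 25 of 1471 probes (1.70%) differed from DMSO, 19 higher (1.29%) and 6 lower (0.408%). A probe was called where the quasi-likelihood F test of edgeR gave a Benjamini-Hochberg adjusted p under 0.05. The 19 higher probes stood 1.45 to 6.64-fold above DMSO, with a median log2 fold change of 1.68, and 15 of them moved at least 2-fold. The 6 lower probes stood 1.74 to 6.71-fold below it, with a median of -1.44, and 4 moved at least 2-fold. In 24 of the 25 the 3 treated pools did not overlap the 6 DMSO pools, against 78 of all tested probes (5.30%), of which 45 were higher (3.06%) and 33 lower (2.24%). An unadjusted p under 0.05 was reached by 100 probes (6.80%).

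**Figure D1:**
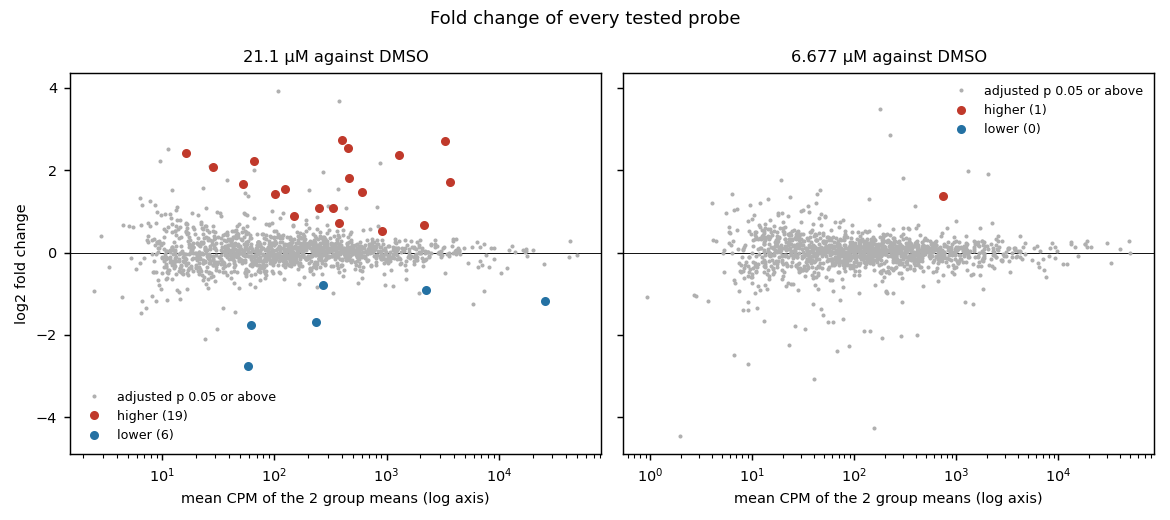
Log2 fold change of each of the 1471 tested probes against the mean of the treated and DMSO group means (CPM, log axis), at 21.1 µM (left) and 6.677 µM (right). Coloured points passed the adjusted p: 19 higher and 6 lower at 21.1 µM, and 1 higher at 6.677 µM.

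The probes that moved covered a wide range of abundance. The 19 higher ones had mean levels of 27.5 to 5692 CPM at 21.1 µM and of 5.55 to 1704 CPM in DMSO. The 6 lower ones had means of 16.2 to 15749 CPM at 21.1 µM and of 95.7 to 35799 CPM in DMSO. Large fold changes alone did not make a call. A 2-fold difference or more was fitted for 57 probes at 21.1 µM and for 57 at 6.677 µM, most of which did not pass the test.

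The highest fold change among the higher probes whose groups did not overlap was that of Dapma7bEVm002921_97205. Its levels were 355, 850 and 898 CPM in the A, B and C pools at 21.1 µM, and its lowest, median and highest DMSO pools had 48.0, 84.7 and 203 CPM. Every pool at 21.1 µM lay above every DMSO pool, the shallow A pool being the lowest of the 3. The log2 fold change was 2.73 ± 0.38 (SE; edgeR adjusted p = 5.22e-05), 6.64-fold.

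Next came Dapma7bEVm010649_96442, a more abundant probe. It had 6888, 8073 and 2116 CPM at 21.1 µM, against 368, 856 and 1270 CPM as the lowest, median and highest of the DMSO pools. The C pool stood well below the A and B pools and still above the highest DMSO pool. The log2 fold change was 2.70 ± 0.42 (edgeR adjusted p = 0.000174). In DMSO, the 3 XtraC pools had 989 to 1270 CPM of this probe and the 3 CON pools 368 to 722 CPM, without overlap. This difference was not called (log2 difference 1.02 ± 0.47, edgeR adjusted p = 0.998). Over the whole table, XtraC and CON pools differed in 0 of 1471 probes after adjustment in edgeR, and in 37 (2.52%) at an unadjusted p under 0.05.

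Of the lower probes, Dapma7bEVm018418_97341 had the widest change. It had 22.5, 11.9 and 14.0 CPM at 21.1 µM, which rest on 4, 8 and 10 counts, against 88.4, 90.5 and 125 CPM as the lowest, median and highest of the DMSO pools. The groups were far apart, although the treated values carry a large counting error. The log2 fold change was -2.75 ± 0.36 (edgeR adjusted p = 1.63e-05).

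Dapma7bEVm005157_96399 had 28.2, 35.8 and 21.0 CPM at 21.1 µM, from 5, 24 and 15 counts, against 73.6, 81.7 and 149 CPM as the lowest, median and highest DMSO pools. All 3 treated pools lay below all 6 DMSO pools. The log2 fold change was -1.75 ± 0.27 (edgeR adjusted p = 0.00018).

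The 25 probes belonged to 23 gene identifiers, and 3 of these identifiers were measured by 2 tested probes. Such pairs carry separate probe numbers on what the files give as the same gene, and they share the animals and the libraries. Where on the transcript each probe binds is not given. Both probes of Dapma7bEVm010649 were called at 21.1 µM, at 2.70 ± 0.42 and 2.53 ± 0.41, although their mean levels there were 5692 ± 3154 and 768 ± 482 CPM (SD, n = 3). Both probes of Dapma7bEVm015298, singled out here after their values were seen, were called too, at 1.72 ± 0.20 and 1.47 ± 0.27. Of the third identifier, Dapma7bEVm001116, also seen first and then named, one probe was called at 0.67 ± 0.10. Its second probe stood at 1.12 ± 0.32 and did not pass (edgeR adjusted p = 0.0917).

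At 6.677 µM, 1 of 1471 probes (0.0680%) differed from DMSO in edgeR after adjustment, and it was higher. An unadjusted p under 0.05 was reached by 57 probes (3.87%), and 53 (3.60%) had pools that did not overlap DMSO, 20 higher (1.36%) and 33 lower (2.24%). The median SE of the log2 fold changes over all tested probes was 0.25 at both concentrations.

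That probe, Dapma7bEVm000190_95850, had 1456, 931 and 837 CPM in the A, B and C pools at 6.677 µM, against 376, 413 and 482 CPM as the lowest, median and highest of the DMSO pools. All 3 pools lay above all 6 DMSO pools, and the shallow A pool was the highest. The log2 fold change was 1.36 ± 0.27 (2.57-fold; edgeR adjusted p = 0.0469). At 21.1 µM the same probe had 2311, 1910 and 2211 CPM, a narrow spread, where its log2 fold change was 2.36 ± 0.27 (edgeR adjusted p = 2.66e-06).

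The call at 6.677 µM was close to its threshold. With the letters as a replicate block the log2 fold change was 1.34 and the adjusted p 0.0556. Without the A pool at 6.677 µM it was 1.08 with an adjusted p of 0.530, and leaving out any other of the 12 pools ended the call as well (adjusted p of 0.0585 to 0.148), except the C pool at 21.1 µM (0.0323). Over 27 alternatives the log2 fold change ranged from 1.08 to 1.52 and the edgeR or DESeq2 adjusted p from 0.000763 to 0.9996, with the call kept in 9.

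Both probes of Dapma7bEVm010649 missed the threshold at 6.677 µM (edgeR adjusted p = 0.0838 for each). Dapma7bEVm010649_96442 had 3379, 3642 and 2723 CPM in the A, B and C pools there, above the highest DMSO pool at 1270 CPM, and a log2 fold change of 1.90 ± 0.42 (95% interval 1.03 to 2.76). Dapma7bEVm010649_96237 had 321, 628 and 443 CPM, above the highest DMSO pool at 191 CPM, and a log2 fold change of 1.81 ± 0.41 (95% interval 0.96 to 2.66). Neither overlapped DMSO.

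With both concentrations combined, as the mean of their fold changes, 12 probes (0.816%) differed from DMSO, 9 higher (0.612%) and 3 lower (0.204%). All 12 were among the 25 called at 21.1 µM, and both contrasts contain those same pools. The 9 higher probes had log2 fold changes of 1.04 to 2.30 and the 3 lower ones of -1.79 to -0.56. In 7 of the 12 all 6 treated pools lay beyond all DMSO pools, as did those of 9 tested probes in all (0.612%). An F test of either concentration called 21 probes (1.43%), again all among the 25. At an unadjusted p under 0.05 the combined contrast held 77 probes (5.23%) and the F test 90 (6.12%).

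The 2 highest-ranked higher probes of the combined contrast were those of Dapma7bEVm010649, at 2.30 ± 0.37 for Dapma7bEVm010649_96442 (edgeR adjusted p = 0.00056) and 2.17 ± 0.36 for Dapma7bEVm010649_96237 (edgeR adjusted p = 0.000694). The lower ones named were Dapma7bEVm018418_97341 at -1.79 ± 0.25 (edgeR adjusted p = 0.000146) and Dapma7bEVm000715_96347 at -0.56 ± 0.11 (edgeR adjusted p = 0.0057). With the XtraC pools alone as controls the calls of both Dapma7bEVm010649 probes ended, at 1.87 and 1.81 (adjusted p = 0.0964 for each). They also ended without letter B (0.167 and 0.176), and that of Dapma7bEVm010649_96442 without letter A (0.0691). The call of Dapma7bEVm000715_96347 ended in 6 of 27 alternatives. Its value was -0.24 against the 5 lowest concentrations (adjusted p = 0.269) and -0.36 against Metribuzin-DA (0.223), and between -0.58 and -0.55 with CON alone, XtraC alone, or letter B or C left out (0.0921 to 0.232). Dapma7bEVm018418_97341 had 64.1, 59.5 and 46.2 CPM in the pools at 6.677 µM, so each lay below the lowest DMSO pool at 88.4 CPM and above each pool at 21.1 µM. Dapma7bEVm000715_96347 had 175, 206 and 210 CPM at 21.1 µM and 263, 296 and 267 CPM at 6.677 µM, against 318, 336 and 375 CPM as the lowest, median and highest of the DMSO pools. Its shift was small, and these groups did not overlap. At 6.677 µM it was not called against DMSO (-0.32 ± 0.13, edgeR adjusted p = 0.9996). Its pools there lay within the range of the 5 lowest concentrations, 229 to 351 CPM.

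**Figure D2:**
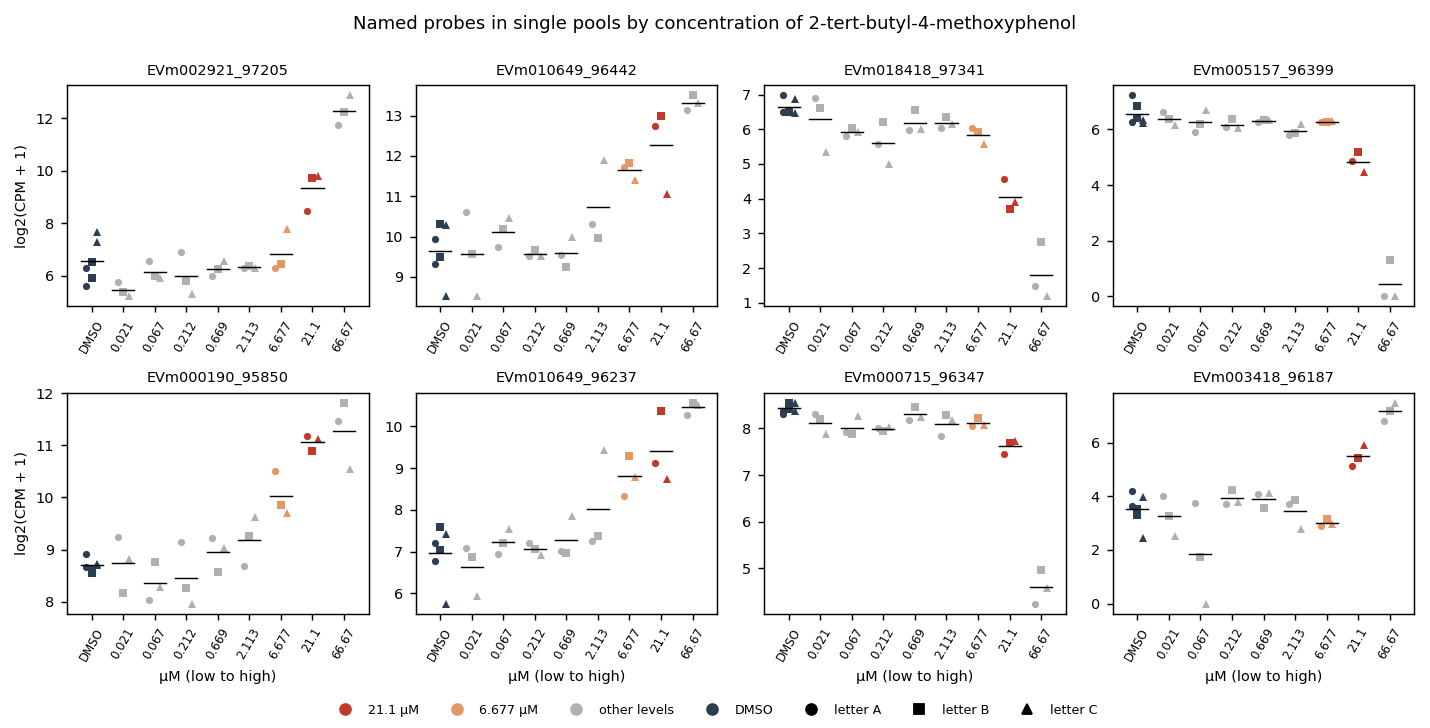
Level of the 8 named probes, as log2(CPM + 1), in each pool in DMSO and at 8 concentrations from low to high, with a bar at each group's mean and marker shapes for the letters. EVm stands for Dapma7bEVm. EVm000190_95850 lies above all 6 DMSO pools at both 6.677 and 21.1 µM, and EVm005157_96399 drops below them at 21.1 µM but not at 6.677 µM.

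The difference between the 2 concentrations was tested directly, in a contrast that uses no DMSO pool. It called 9 probes (0.612%), 7 higher at 21.1 than at 6.677 µM (0.476%) and 2 lower (0.136%). Without adjustment 102 (6.93%) had a p under 0.05, and in 137 (9.31%) the pools of the concentrations did not overlap, 82 higher (5.57%) and 55 lower (3.74%). All 9 were among the 25 that differed from DMSO at 21.1 µM, a contrast that holds the same 3 pools, and for the remaining 16 no difference between the concentrations was called. Leaving out the C pool at 21.1 µM reduced the 9 to 1, and leaving out the B pool at 6.677 µM to 2.

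Dapma7bEVm003418_96187 had the widest difference, with 33.8, 41.8 and 60.3 CPM at 21.1 µM (6, 28 and 43 counts) and 6.41, 7.85 and 6.85 CPM at 6.677 µM (1, 7 and 4 counts). The values at 6.677 µM lay within the DMSO range of 4.42 to 17.6 CPM. The log2 difference between the concentrations was 2.66 ± 0.49 (edgeR adjusted p = 0.00376). For Dapma7bEVm002921_97205 it was 2.41 ± 0.49 (edgeR adjusted p = 0.0109): its A, B and C pools at 6.677 µM had 76.9, 87.5 and 223 CPM, so that 2 of 3 lay inside the DMSO range and the third just above it.

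Both lower probes of this contrast stood lower at 21.1 than at 6.677 µM, where the pools of Dapma7bEVm018418_97341 also lay below all DMSO pools. Dapma7bEVm018418_97341 differed by -1.91 ± 0.40 on the log2 scale (edgeR adjusted p = 0.0115). Dapma7bEVm005157_96399, at 76.9, 75.2 and 78.7 CPM in the 6.677 µM pools and thus within the DMSO range, differed by -1.43 ± 0.31 (edgeR adjusted p = 0.0139). Each of the 4 probes named in this contrast lost its call without the B pool at 6.677 µM, with edgeR adjusted p of 0.0715 to 0.144, and without the C pool at 21.1 µM, with 0.0605 to 0.247. Dapma7bEVm002921_97205 also lost it without the A pool at 6.677 µM (0.0609), Dapma7bEVm018418_97341 without the B pool at 21.1 µM (0.124) and Dapma7bEVm005157_96399 without the C pool at 6.677 µM (0.0608). Their log2 differences without these pools were 2.38 and 2.74 for Dapma7bEVm003418_96187, 2.13 to 2.21 for Dapma7bEVm002921_97205, -1.87 to -1.73 for Dapma7bEVm018418_97341 and -1.48 to -1.21 for Dapma7bEVm005157_96399.

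The named probes that stood high at both concentrations were not called in this contrast. The 95% interval of the log2 difference between 21.1 and 6.677 µM was -0.24 to 1.85 for Dapma7bEVm010649_96442 (edgeR adjusted p = 0.835) and 0.34 to 1.67 for Dapma7bEVm000190_95850, whose pools at the 2 concentrations did not overlap (edgeR adjusted p = 0.279). An interval of this width leaves room for differences of more than 2-fold.

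All levels are set against the same 6 DMSO pools, so their values for the 25 probes are given side by side as a description. The 19 higher probes had median log2 values of 0.17 at 2.113 µM, 0.18 at 6.677 µM and 3.39 at 66.67 µM, and the range at 6.677 µM was -0.57 to 1.90. At 66.67 µM, 17 of the 19 stood higher than at 21.1 µM. The exceptions were the 2 probes of Dapma7bEVm015298, at 0.96 ± 0.20 and 0.26 ± 0.28 at 66.67 µM against 1.72 ± 0.20 and 1.47 ± 0.27 at 21.1 µM. The 6 lower probes ranged from -0.84 to -0.19 at 6.677 µM and from -7.09 to -3.84 at 66.67 µM. All 6 also stood below DMSO at each of the 5 lowest concentrations, by -0.95 to -0.12, as did 166 of the 1471 tested probes (11.3%).

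**Figure D3:**
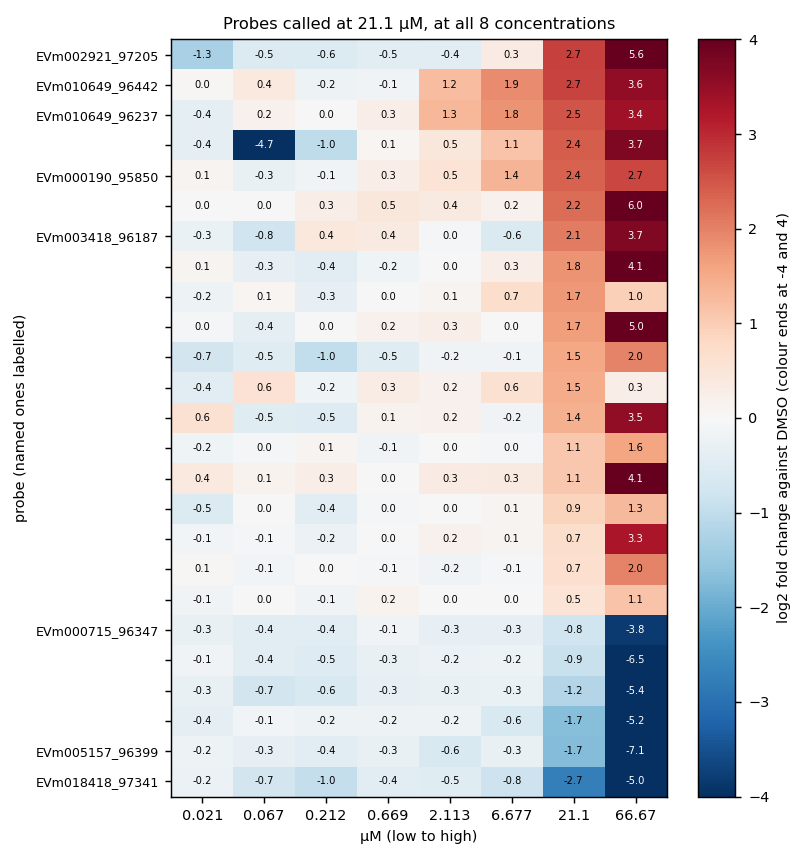
Log2 fold change against DMSO of the 25 probes called at 21.1 µM (rows, ordered by that value) at all 8 concentrations from low to high, with named probes labelled (EVm for Dapma7bEVm) and colours ending at -4 and 4. In 17 of the 19 higher rows and in all 6 lower rows the value at 66.67 µM lies further from 0 than that at 21.1 µM, while most rows are pale at 6.677 µM.

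The same pools were set against the 15 pools of the 5 lowest concentrations of the chemical, 0.021 to 2.113 µM, in place of DMSO. At 21.1 µM this called 43 probes (2.92%), 35 higher (2.38%) and 8 lower (0.544%), with 269 (18.3%) at an unadjusted p under 0.05, and 23 of the 25 probes were among them. At 6.677 µM it called 1 (0.0680%; 38, or 2.58%, at an unadjusted p under 0.05), again Dapma7bEVm000190_95850, at 1.27 ± 0.23 (edgeR adjusted p = 0.0132). Its levels in those 15 pools were 249 to 785 CPM, below all 3 pools at 6.677 µM.

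This contrast at 6.677 µM shares no pool with that of 21.1 µM against DMSO. The pools of both carry the same letters, however, and 2 gene identifiers count with 2 probes each among the 19 higher probes. Against the lower concentrations, 14 of the 19 higher probes stood above, as did 49.2% of all tested probes. Of the 6 lower ones 2 stood below, as did 50.8% of all tested probes. The 2 lower probes named at the combined contrast had small values in it. Dapma7bEVm018418_97341 stood at -0.27 ± 0.27 on the log2 scale in the 6.677 µM pools and Dapma7bEVm000715_96347 at 0.00 ± 0.12, both not called, and their levels in the 15 pools (31.2 to 118 and 229 to 351 CPM) reached below those in DMSO. At 21.1 µM both were called against these pools, at -2.18 ± 0.34 and -0.48 ± 0.12 (edgeR adjusted p = 0.000111 and 0.0316).

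Metribuzin-DA, a metabolite of the herbicide metribuzin, was the second chemical of the exposure and offers pools at the same concentrations. Against DMSO it called 0 of 1514 probes in edgeR at either concentration, with 113 (7.46%) at 21.1 µM and 127 (8.39%) at 6.677 µM at an unadjusted p under 0.05. The 3 pools of 2-tert-butyl-4-methoxyphenol at 21.1 µM differed from the 3 of Metribuzin-DA in 25 of 1514 probes tested (1.65%), 19 of which were among the 25 called against DMSO, with 174 (11.5%) at an unadjusted p under 0.05. At 6.677 µM, where 247 (16.3%) had an unadjusted p under 0.05, they differed in 1 (0.0661%), Dapma7bEVm000190_95850, at 1.48 ± 0.27 (edgeR adjusted p = 0.00486), where the Metribuzin-DA pools had 343 to 455 CPM.

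At 21.1 µM 6 of the 25 calls did not pass against Metribuzin-DA. Among the named probes these were both of Dapma7bEVm010649 and Dapma7bEVm000715_96347, the last at -0.51 ± 0.18 (edgeR adjusted p = 0.163), with 241 to 315 CPM in the Metribuzin-DA pools. In the Metribuzin-DA pools at that concentration Dapma7bEVm010649_96442 had 1425 to 3422 CPM, which reaches into the range of the 2-tert-butyl-4-methoxyphenol pools (2116 to 8073 CPM) and lies above all DMSO pools. The log2 difference between the chemicals was 1.28 ± 0.57 (edgeR adjusted p = 0.332), the highest adjusted p of the probe's 27 alternatives at 21.1 µM. Among the pools of lower concentrations of 2-tert-butyl-4-methoxyphenol, this probe ranged from 366 to 3848 CPM, the highest being a pool at 2.113 µM. Against Metribuzin-DA the calls of Dapma7bEVm002921_97205 (3.70 ± 0.59), Dapma7bEVm018418_97341 (-2.76 ± 0.39) and Dapma7bEVm005157_96399 (-1.25 ± 0.28) at 21.1 µM held, with edgeR adjusted p of 5.13e-05, 5.07e-06 and 0.00821.

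**Figure D4:**
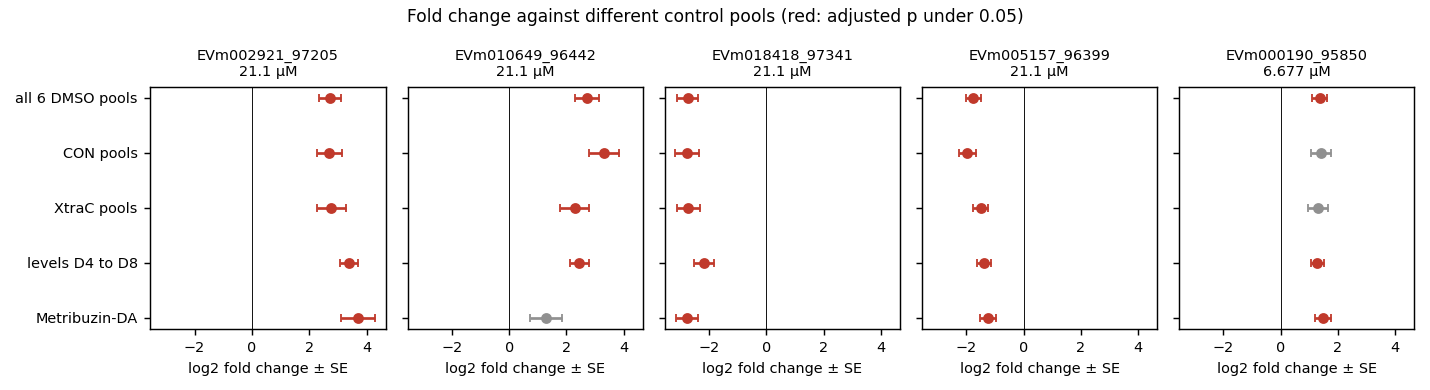
Log2 fold change ± SE of the probes named at 21.1 µM (4 panels) and at 6.677 µM (right panel) against 5 sets of control pools, where levels D4 to D8 are 0.021 to 2.113 µM of the same chemical and EVm stands for Dapma7bEVm; red marks an adjusted p under 0.05. EVm010649_96442 is grey against Metribuzin-DA, and EVm000190_95850 at 6.677 µM is grey against the CON or XtraC pools alone, with all values on one side of 0.

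The counts of calls were smaller with either type of DMSO pool alone. With the 3 CON pools alone as controls 15 probes were called at 21.1 µM, 7 with both concentrations together and 0 at 6.677 µM (38 at an unadjusted p under 0.05). The XtraC pools alone gave 19 calls at 21.1 µM, 0 calls at 6.677 µM (36 at an unadjusted p under 0.05) and 3 with both together. Dapma7bEVm000190_95850 at 6.677 µM stood at 1.41 against CON and 1.31 against XtraC, so its size hardly moved while its adjusted p did, to 0.257 and 0.9996.

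With every pool of letter B left out 8 probes were called at 21.1 µM, all among the 25, and without letter C 14, while leaving out any single pool gave 18 to 26. In a fit that dropped the libraries under 50% of the median total, both shallow A pools among them, 0 probes were called at 6.677 µM (66 at an unadjusted p under 0.05). The decreases of Dapma7bEVm018418_97341 and Dapma7bEVm005157_96399 at 21.1 µM passed in all 27 alternatives, Dapma7bEVm002921_97205 in 26 and Dapma7bEVm010649_96442 in 25.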

How the data were processed

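The authors deposited 1 table of raw TempO-Seq counts, 1 row a probe, unscaled per the file headers, and for each chemical a table of log2 values of those counts. The log2 tables served here to pair level codes with concentrations. The submitters' processing notes name bcl2fastq without a version; the program that assigned reads to probes is not given in the sources used here. Columns matched to no sample numbered 0.

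The 24 libraries of 2-tert-butyl-4-methoxyphenol and the 6 DMSO pools were fitted together with edgeR 4.0.16 under R 4.3.3, using TMM, filterByExpr and the quasi-likelihood F test, adjusted by Benjamini-Hochberg over all 1471 probes, with a threshold of 0.05. In this fit the other levels entered the filter, the TMM scaling and the estimate of spread, but no contrast. Contrasts were 21.1 µM, 6.677 µM and their mean against DMSO, the 2 in 1 F test, and 21.1 against 6.677 µM. SE were derived as the absolute log2 fold change divided by the square root of the test's F. The 95% intervals use these SE with 21 residual degrees of freedom. The p-values measure the spread between pools of 1 exposure. For each contrast but the F test, the 2 higher and 2 lower called probes with the largest fold change among groups without overlap were named, or all where 5 or fewer were called. Alternatives included DESeq2 1.42.0, other scaling, no filter, other fitted or control pools, and leaving out pools. Same-letter pools of the 3 groups deviated together (9 of 9 correlations over 0.1, 0.251 to 0.584), and pools were made within plates per the labels' protocols. The letters were therefore taken as pairing pools. The main fit held no term for the letters, which entered as a replicate block in an alternative fit only. The edgeR test at 21.1 µM was tried on simulated data whose pools were drawn independently, without the shared deviations of a letter. Figures were drawn with matplotlib 3.10.9. The libraries and tests were chosen with earlier results of these data known. Gene lists were not used, since 0 probe identifiers are in the reference table of gene names.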

Additional observations from a re-analysis of the deposited data

How the results depend on the processing

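The named fold changes kept their direction in all 335 alternative values, 280 on the same side of the threshold and 55 no longer past it. At 21.1 µM 25 probes were called, against 15 with CON pools alone, 19 with XtraC alone and 43 with 0.021 to 2.113 µM as controls; leaving out letters or single pools gave 8 to 26. At 6.677 µM the 1 call became 3 with DESeq2 and 0 with the replicate block (65 at an unadjusted p under 0.05). The count was also 0 with CON alone, with XtraC alone and with the libraries below 50% of the median total left out. Leaving out pools gave 0 to 2. The 1 call without letter A was lower and the 2 without letter C were higher, and 0 of these were the probe of the main fit. Both concentrations together gave 12, against 7 with CON alone, 3 with XtraC alone and 23 with the lower concentrations as controls, and 4 to 15 with pools left out. The test of either concentration gave 21, and 5 to 24 with pools left out. Between the concentrations 9 were called, 14 with DESeq2, and 0 to 12 with pools left out, 0 of them without letter B. The replicate block ended no call of a named probe other than that at 6.677 µM, and gave 28 calls at 21.1 µM and 14 together. The cause of these changes was not tested, and some of these fits held fewer pools. Depth limits single pools of the low probes, with 4 to 10 counts of Dapma7bEVm018418_97341 at 21.1 µM and 1 to 7 of Dapma7bEVm003418_96187 at 6.677 µM, and 2 shallow pools of letter A stand at 27.4% and 25.6% of the median total.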
